A study of Mus musculus with 2 samples.

Results

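The collagen gene family was taken as every gene whose symbol is Col, a number, the letter a and a number, which gave 44 genes among the 19347 of the deposited table of annotated cells. The cells came from the dural meninges, the tough outer membrane around the brain, of mice at postnatal day 14 and their transcripts were counted cell by cell in droplets (10x Genomics RNA sequencing). There was 1 library of heterozygous animals (Il33 mcherry/+, called het) and 1 of Il33-deficient animals (Il33 mcherry/mcherry, called KO). Both genotypes carry the H2B-mCherry allele at Il33, the gene of an alarm cytokine, so the controls have 1 intact copy. Each genotype and sex was a pool of tissue from 5 to 8 mice. Sorted lymphocytes (CD45+CD11b-), sorted stromal cells (gp38+CD31-) and total viable cells were mixed 1:1:2. With 1 library per genotype there was no replicate, so no test was made. Intervals are exact 95% intervals that cover counting error only.

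The 44 genes are on the chromosomes of GRCm38 (GENCODE vM21). Of them, 38 had at least 100 UMIs (unique molecular identifiers, 1 per captured transcript) over all annotated cells. The other 6 were Col4a3, Col6a4, Col10a1, Col17a1, Col19a1 and Col24a1, with 76, 19, 16, 59, 9 and 98 UMIs in both libraries together. The het library held 5950 annotated cells with a median of 12746.5 UMIs, and the KO library 6594 cells with a median of 12204.5 UMIs. Il33 was at 43.5 CPM (UMIs of the gene per 1000000 UMIs) in het and 9.67 CPM in KO over all annotated cells, and at 109.6 and 24.5 CPM in cluster 0. All collagen levels below are in CPM and carry no gene length, so they are compared between clusters and libraries and not between genes. The matrices share 36 cell barcodes and the annotated cells 14.

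Collagens are trimers of chains that wind into a triple helix. Fibrillar collagens (types I, II, III, V, XI, XXIV and XXVII) form the cables that carry load in dura and bone. Fibril-associated collagens (FACITs) sit on the surface of those cables, type VI forms beaded filaments beside cells, and type IV forms the sheet of basement membranes around vessels and barriers. Types VIII and X form hexagonal nets, types XV and XVIII (multiplexins) lie at basement membranes, and types XIII, XVII, XXIII and XXV span the cell membrane. In the dura, fibroblasts are the known main makers of fibrils, bone-forming cells of the overlying skull make them too, and vessels make type IV.

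Levels were read over the 22 deposited clusters. Of these, 7 are structural by their markers: cluster 0 and cluster 7 are fibroblast-like (5 and 6 of 10 markers at least 2-fold above all other cells), cluster 4 is osteolineage-like (10 of 10), cluster 5 arachnoid barrier-like (6 of 9), cluster 8 blood endothelial-like (8 of 8) and cluster 20 pericyte or smooth muscle-like (8 of 8). Cluster 15 carries both the Schwann cell and the oligodendrocyte markers (7 of 7 each) and is given by number. Other lists also had 3 or more markers 2-fold up. Fibroblast markers did in clusters 4 (6 of 10) and 5 (3 of 10), and lymphatic endothelial markers in cluster 8 (4 of 6). Chondrocyte markers did in cluster 0 (3 of 5 measured), pericyte or smooth muscle markers in cluster 7 (3 of 8) and olfactory ensheathing markers in cluster 15 (6 of 6). The 12 immune clusters, of which 5 are B cell-like (clusters 1, 2, 6, 10 and 16), served as the background of free collagen RNA. The clusters were made from these same genes, so a level in one cluster against another is a description.

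The collagen share of transcripts was highest in the fibroblast-like and osteolineage-like cells. They made up 4.55% of all UMIs in het and 4.41% in KO in cluster 0, 4.69% and 4.88% in cluster 7, and 4.40% and 4.54% in cluster 4. Single cells of cluster 0 reached 27.2% in het and 29.8% in KO. The share was 1.66% and 1.65% in the arachnoid barrier-like cluster 5, 1.79% and 2.18% in the pericyte-like cluster 20, 0.640% and 0.629% in the endothelial-like cluster 8 and 0.479% and 0.455% in cluster 15. Over the 7 structural clusters the KO/het ratio of this summed share ran from 0.95 in cluster 15 to 1.22 in cluster 20. By the median share per cell the ratio ran from 0.893 in cluster 5 to 2.17 in cluster 15. On that measure clusters 4, 7, 8 and 15 lay on the other side of 1 from the summed ratio. Cluster 15 had medians of 0.234% in het and 0.507% in KO. For scale, the B cell-like clusters lay between 0.101% and 0.228%. The macrophage-like cluster 3, the highest immune cluster, had 0.876% in het and 0.807% in KO, above clusters 8 and 15.

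**Figure D1:**
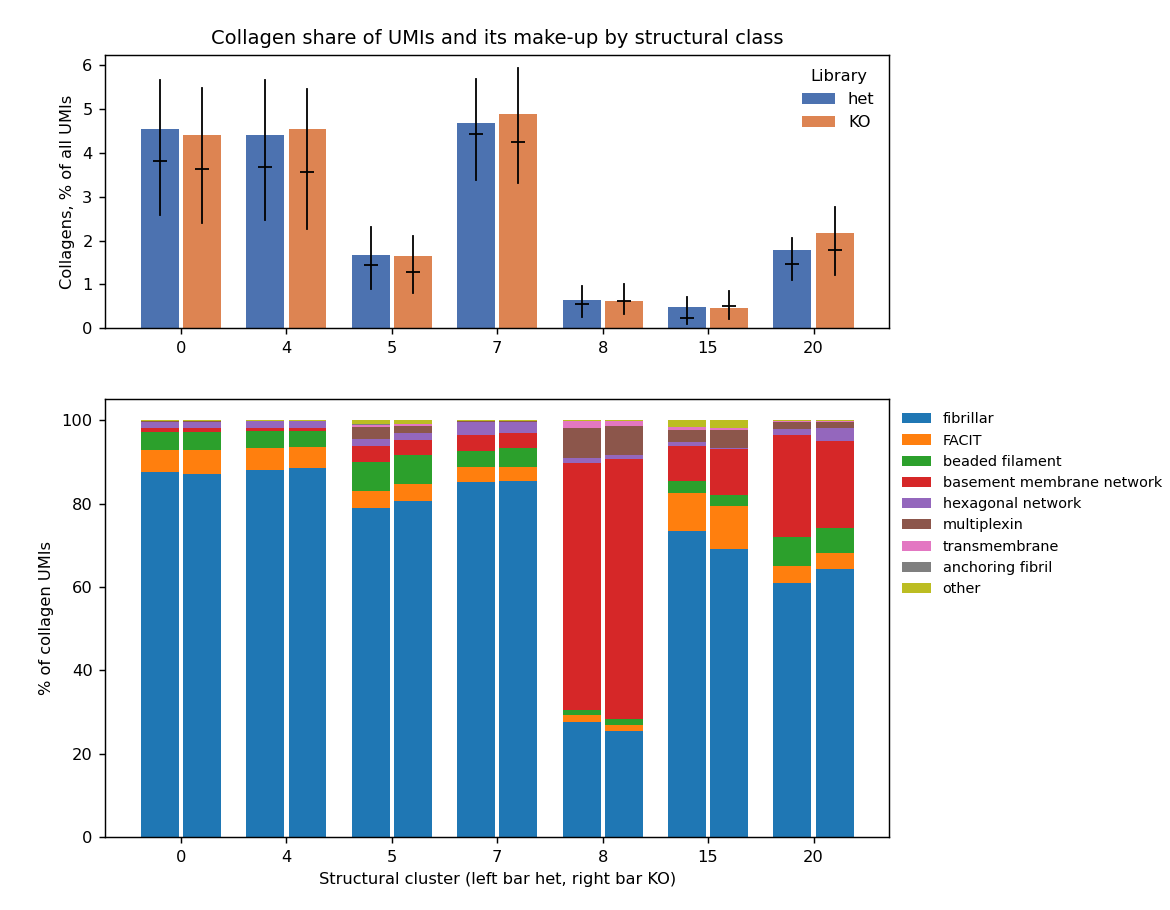
Upper panel: collagen UMIs as a percent of all UMIs (y axis) for the 7 structural clusters (x axis), with bars for the summed share of the het and KO libraries, a dash for the median over cells and a line for their quartiles. Lower panel: percent of collagen UMIs (y axis) by structural class. Bars of clusters 0, 4 and 7 stand above 4%, and type IV takes most of cluster 8.

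The make-up of the collagen UMIs differed more between clusters than between libraries. Free RNA was not subtracted from these shares. Fibrillar genes gave 87.6% of collagen UMIs in het and 87.1% in KO in cluster 0, 88.2% and 88.6% in cluster 4, and 85.2% and 85.4% in cluster 7. They gave 27.5% and 25.4% in the endothelial-like cluster 8, where basement membrane genes gave 59.3% and 62.5% and multiplexins 7.18% and 7.00%. In the pericyte-like cluster 20 the fibrillar share was 60.9% and 64.4% and the basement membrane share 24.3% and 20.8%. Of the 38 genes with 100 UMIs, 37 had their highest level (mean of both libraries) in a structural cluster and 1, Col7a1, in cluster 21. The highest cluster was the same in both libraries for 29 and differed for 9 (Col1a2, Col2a1, Col4a4, Col5a3, Col6a1, Col6a2, Col8a1, Col9a1 and Col15a1).

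**Figure D2:**
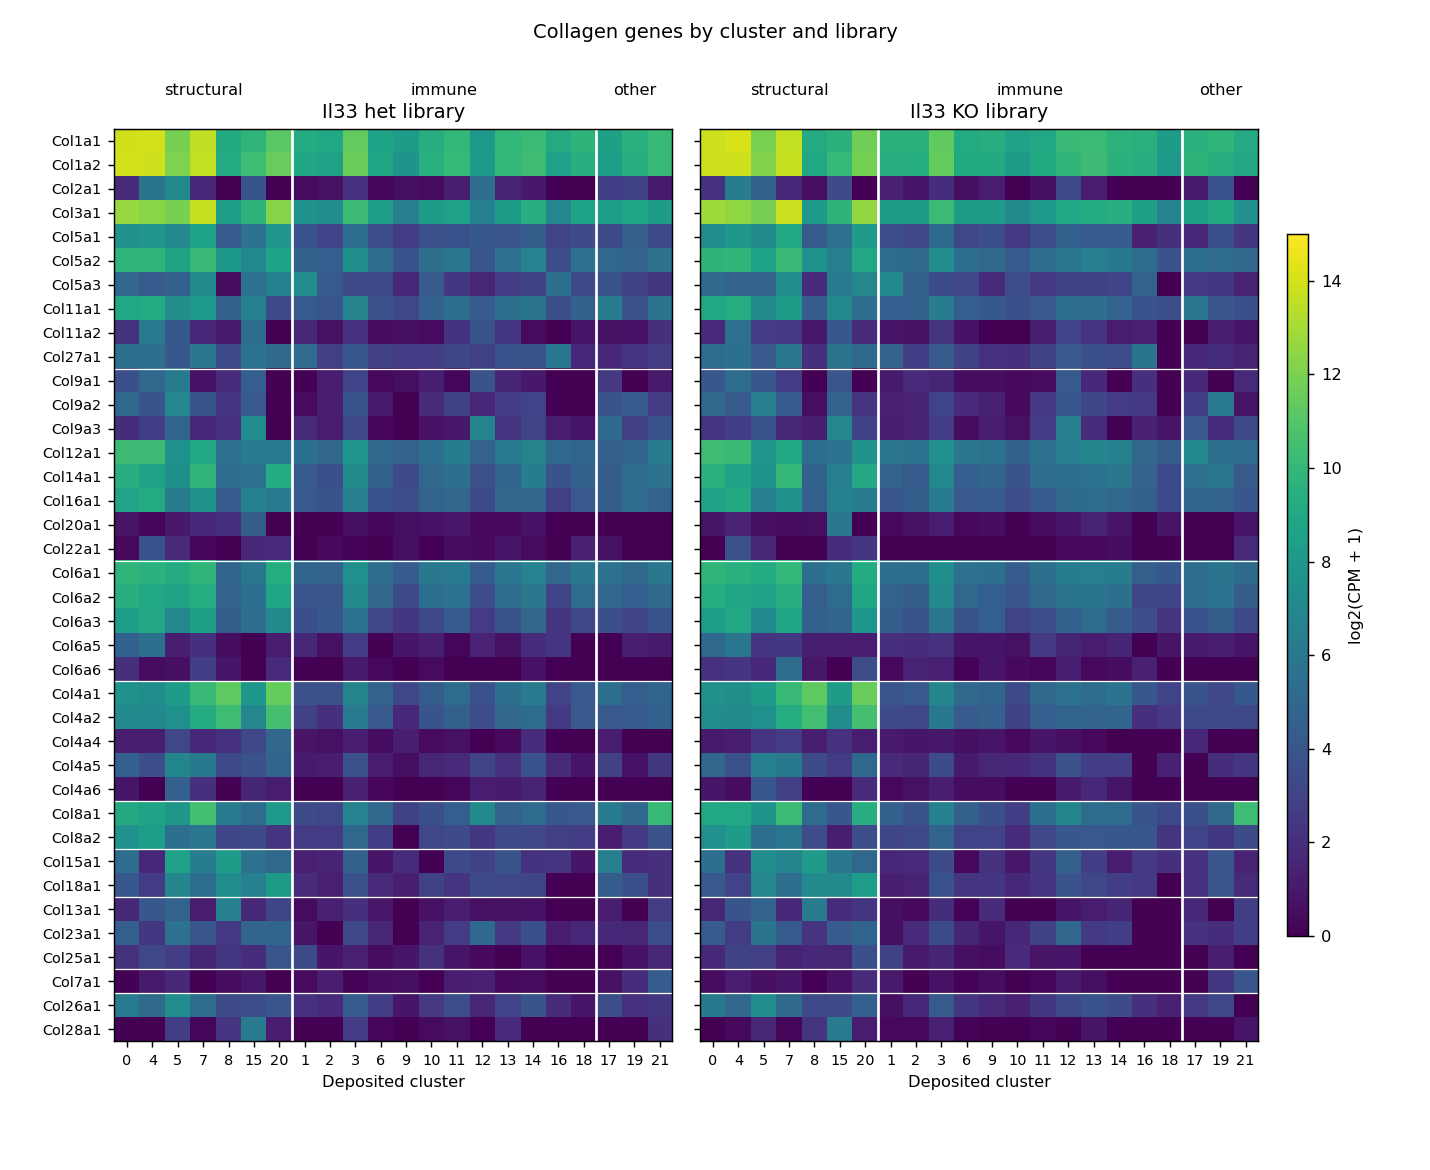
Level of the 38 collagen genes with at least 100 UMIs (rows, grouped by structural class) in the 22 clusters (columns, structural, immune and other), as log2(CPM + 1) in color, het at left and KO at right. Col1a1, Col1a2 and Col3a1 are brightest in clusters 0, 4 and 7, and Col4a1 and Col4a2 in clusters 8 and 20.

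Type I collagen is the main fibril of dura and bone, a trimer of 2 chains of Col1a1 and 1 of Col1a2 in most tissues. Col1a1 (chr11:94936224-94953042, plus strand) was at 15619 CPM in het and 15063 CPM in KO in cluster 0, 16593 and 17161 CPM in cluster 4, and 12145 and 12647 CPM in cluster 7. It was at 3875 and 4065 CPM in cluster 5, 2268 and 3378 CPM in cluster 20, and 541 and 569 CPM in cluster 8. The B cell-like clusters, part of the background, had Col1a1 at 510 CPM in het and 634 CPM in KO, near the level of cluster 8. The UMIs of Col1a1 per UMI of Col1a2 stayed between 0.69 and 1.12 over the 7 structural clusters and both libraries. They were lowest in cluster 15, at 0.694 in het and 0.736 in KO, and highest in cluster 4, at 1.09 and 1.12.

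Type III collagen, the thin fibril of soft tissue and vessel walls, was spread differently. Col3a1 (chr1:45311538-45349706, plus) was highest in the Pi16-bearing cluster 7, at 13169.9 CPM in het and 14005 CPM in KO, against 6667 and 7003 CPM in cluster 0 and 5115 and 5757 CPM in cluster 4. Per UMI of Col1a1, Col3a1 had 0.308 UMIs in het and 0.335 in KO in the osteolineage-like cluster 4. The same ratio was 0.427 and 0.465 in cluster 0, 1.08 and 1.11 in cluster 7, and 2.15 and 1.77 in the pericyte-like cluster 20. The order of these 4 clusters was the same in both libraries. The osteolineage-like cluster had the lowest value of the 7 structural clusters and the pericyte-like cluster the highest.

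Type V collagen starts and limits the growth of type I fibrils. Col5a1 was highest in cluster 7 (408 CPM in het and 492 CPM in KO) and lowest among structural clusters in cluster 8 (18.1 and 18.3 CPM). Col5a2, which lies beside Col3a1 on chromosome 1, was at 1086 and 1106 CPM in cluster 7 and still at 252 and 188 CPM in cluster 8. In cluster 8 Col5a1 therefore had 0.0720 and 0.0975 UMIs per UMI of Col5a2, against 0.580 and 0.623 in cluster 20. Col11a1, the type XI chain that can take the place of type V chains, was at 576 CPM in het and 627 CPM in KO in cluster 4 and at 511 and 495 CPM in cluster 0. In cluster 20 it was at 9.24 and 42.1 CPM. Among the rarer fibrillar genes, Col2a1 was highest in cluster 5 in het (139 CPM, against 24.7 CPM in KO) and in cluster 4 in KO (77.9 CPM, against 55.9 CPM in het). Few cells carried it in cluster 4, where 3 of 360 het cells held 274 of 290 UMIs and 5 of 507 KO cells held 493 of 547. Col11a2, another type XI chain, was at 67.9 and 49.4 CPM in cluster 4. Col27a1 was at 60.0 and 62.7 CPM in cluster 7, and Col24a1, with 98 UMIs in all, was highest in the osteolineage-like cluster 4, at 7.14 and 4.56 CPM.

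The FACIT genes were divided among the stromal clusters. Col12a1 was highest in cluster 0, at 1256 CPM in het and 1319 CPM in KO, with 1224 and 1168 CPM in cluster 4 and 509.9 and 498 CPM in cluster 7. Col14a1 was highest in cluster 7, at 893 and 1007 CPM, with 707 and 753 CPM in cluster 0 and 394 and 414 CPM in cluster 4. Col16a1 was highest in cluster 4, at 579 and 533 CPM. Both libraries gave the same highest cluster for each of these 3 genes. Col22a1, known from tissue junctions, was at 12.9 and 12 CPM in cluster 4 and at most 3.94 CPM in the other structural clusters. Col20a1 had its highest level in cluster 15 (20.4 and 62.8 CPM, against at most 3.09 CPM in the others). Col9a3, a chain of the cartilage FACIT type IX, was also highest in cluster 15, at 156 and 122 CPM, with 103 and 90.4 CPM in immune cluster 12. Col9a2, of the same type, was highest in cluster 5, at 121 and 90.1 CPM.

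Type VI collagen needs the chains of Col6a1, Col6a2 and another, long chain, which is Col6a3 in most tissues and Col6a5 or Col6a6 in some. Col6a1 ranged from 609 to 915 CPM in het and from 608 to 971 CPM in KO over clusters 0, 4, 5, 7 and 20. The UMIs of Col6a3 per UMI of Col6a2 were 1.08 in het and 1.13 in KO in cluster 4, 0.513 and 0.514 in cluster 0 and 0.311 and 0.318 in cluster 5. Cluster 4 was also the highest for Col6a5, at 45.9 and 57.1 CPM, followed by cluster 0 at 23.9 and 30.8 CPM. In cluster 7 Col6a5 was at 3.22 and 4.36 CPM. Col6a6 was highest in cluster 7, with 6 CPM in het and 40.7 CPM in KO.

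Among type IV genes, Col4a1 and Col4a2, whose start sites face away from each other on chromosome 8, were highest in cluster 20 (Col4a1 at 2772 CPM in het and 2975 CPM in KO) and next in cluster 8 (2463 and 2489 CPM). Cluster 7 came next, at 1086 and 1131 CPM, which is over 5 times the level in the other fibroblast-like cluster (208 and 202 CPM). Col4a1 had 1.25 to 2.01 UMIs per UMI of Col4a2 over the structural clusters. Another paired type IV locus, Col4a5 and Col4a6 on chromosome X, was highest in the arachnoid barrier-like cluster 5, with Col4a5 at 115 and 91.9 CPM and Col4a6 at 23.3 and 16.1 CPM. In cluster 5 Col4a5 had 4.95 and 5.70 UMIs per UMI of Col4a6, against 30.0 and 33.2 in cluster 0. Col4a4 stayed at or under 8.31 CPM in clusters 0, 4, 5, 7, 8 and 15, and its 30.3 CPM in cluster 20 of het came from 23 UMIs in 7 cells, 9 of them in 1 cell, against 1 UMI in KO. The multiplexins were split: Col15a1 was highest in clusters 8 (295 and 299.6 CPM) and 5 (390.0 and 159.6 CPM), and Col18a1 in cluster 20 (288 and 327 CPM).

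The type VIII chains went separate ways. Col8a1 was at 1429.6 CPM in het and 1172 CPM in KO in cluster 7, and Col8a2 was highest in cluster 4, at 325 and 304 CPM. Col8a1 had 1.23 and 1.62 UMIs per UMI of Col8a2 in cluster 4, 24.8 and 20.3 in cluster 7, and over 60 in cluster 20 (65.7 and 63.0, from few Col8a2 UMIs). Outside the structural clusters, Col8a1 was at 1083 and 1316 CPM in cluster 21, a small cluster of 29 het and 38 KO cells led by Pde6g, Gnb3 and Tph1 and left unnamed. It was found in 29 of 29 het and 37 of 38 KO cells there. Cluster 21 also had the highest Col7a1, the anchoring fibril chain of skin, at 19.7 and 15.0 CPM, and the highest Col17a1, at 9.83 and 6.69 CPM. Of the other transmembrane genes, Col25a1 was highest in cluster 20 (14.5 and 11.8 CPM), Col13a1 in cluster 8 (90.3 and 68.9 CPM) and Col23a1 in cluster 5 (47.2 and 53.2 CPM). Col26a1 was highest in cluster 5 (162 and 151 CPM), and Col28a1, known from peripheral nerve, in cluster 15 (67.7 and 72.4 CPM).

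The second comparison set KO against het within each structural cluster. A gene was called when it had at least 100 UMIs in the cluster and a KO/het ratio of CPM at least 1.5-fold from 1. The clusters gave 168 pairs of gene and cluster with enough UMIs, of which 8 were called higher and 10 lower in KO. Of all genes measured, 0.65% (cluster 0) to 5.0% (cluster 15) were called higher. From 1.01% (cluster 4) to 7.4% (cluster 15) were called lower. The median log2 ratio of the collagen genes measured ran from -0.21 in cluster 8 to 0.30 in cluster 20, and that of all genes measured from -0.02 to 0.02 over the 7 clusters. In the osteolineage-like cluster 4 none of 27 genes was called in either direction (ratios 0.728 to 1.39), where 0.97% of all genes measured were called higher and 1.01% lower. In cluster 0, 0 of 31 were higher (0.65% of all genes) and 1 was lower (1.44% of all genes). That gene was Col25a1, a transmembrane collagen at 3.48 CPM in het and 2.28 CPM in KO, with a ratio of 0.656 (0.445 to 0.961). The B cell-like clusters had Col25a1 at 2.40 and 2.18 CPM. The other 30 genes of cluster 0, the main fibril genes among them, had ratios of 0.696 to 1.41.

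**Figure D3:**
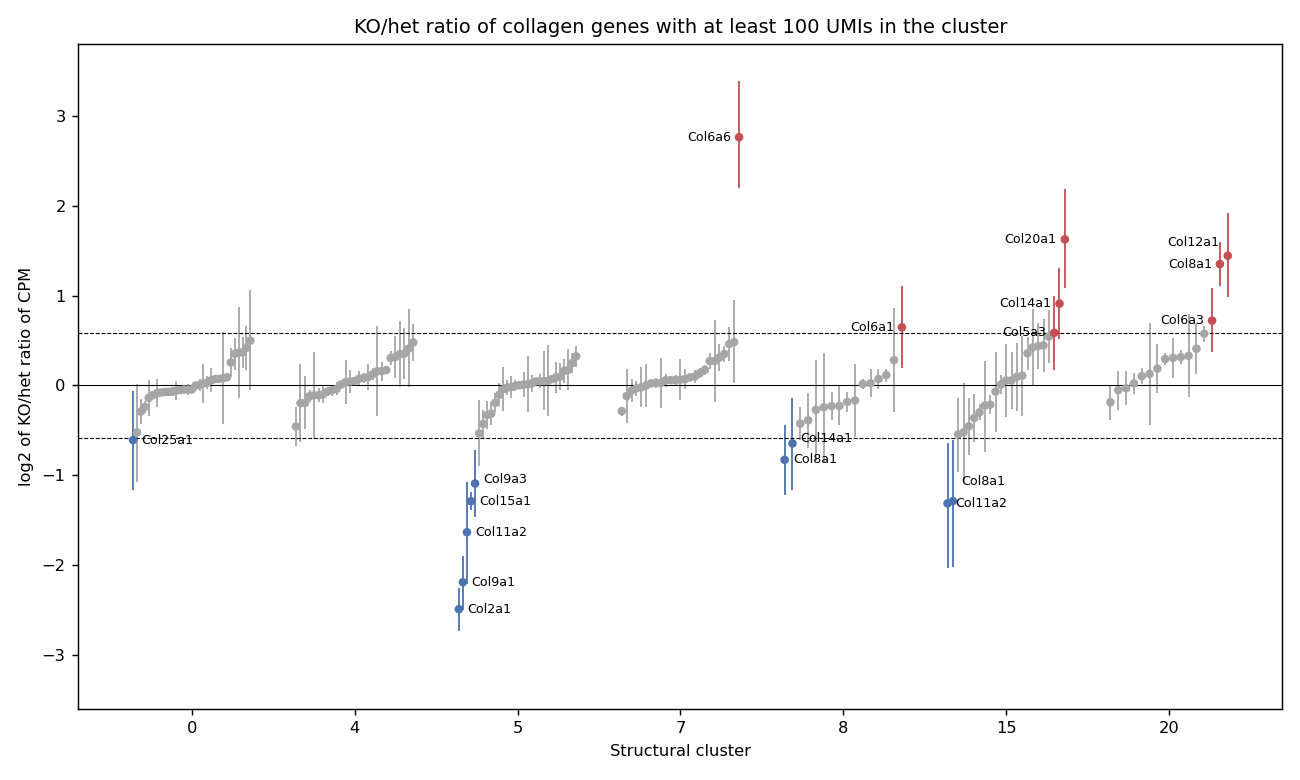
log2 of the KO/het ratio of CPM (y axis) for each collagen gene with at least 100 UMIs, by structural cluster (x axis). Points are ratios and lines their 95% counting intervals; red is at least 1.5-fold higher and blue at least 1.5-fold lower in KO, past the dashed lines. Col6a6 in cluster 7 stands highest and Col2a1 in cluster 5 lowest.

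In the fibroblast-like cluster 7, 1 of 25 genes was higher (2.77% of all genes) and 0 were lower (1.24% of all genes). That gene was Col6a6 (chr9:105687809-105828160, minus), the alternative long chain of type VI collagen. It had 28 UMIs in 21 of 264 het cells and 224 UMIs in 71 of 316 KO cells, a ratio of 6.78 (4.57 to 10.4). The share of cells with a UMI was 7.95% (4.99 to 11.9) in het and 22.5% (18 to 27.5) in KO, against 0.156% and 0.277% in the B cell-like clusters. Median depth in cluster 7 was 17513.5 and 17126 UMIs, and in the B cell-like clusters 3934.5 to 19690.0 UMIs. The largest cell held 3 het and 23 KO UMIs, and the ratio was 7.76 without the 5 cells with most UMIs in each library. It was 10.5 among cells labelled female and 5.99 among cells labelled male. These labels split cells by whether Xist was detected. A cell of a female mouse with no captured Xist transcript would be labelled male. Whether the labels follow the sex of the mice was not tested, here or in the clusters below. The 24 other genes of cluster 7, Col6a1, Col6a2 and Col6a3 among them, had ratios of 0.820 to 1.40. The share of cells with a UMI was lower in KO for some, as for Col8a1 (95.5% and 81.0%) and Col12a1 (93.2% and 86.7%). It was close for others, as for Col6a1 (100% in both) and Col14a1 (98.9% and 98.4%). The part of cell make-up in the Col6a6 ratio was not tested.

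Cluster 5, the arachnoid barrier-like cells, had the most collagen genes at lower levels in KO. None of its 30 genes was higher (0.711% of all genes) and 5 were lower (1.79% of all genes). Col15a1 (chr4:47208161-47313167, plus), a multiplexin of basement membrane zones, was at 390.0 CPM in het and 159.6 CPM in KO. It had 2206 UMIs in 98 of 295 het cells and 1188 UMIs in 96 of 372 KO cells, a ratio of 0.409 (0.381 to 0.439). The ratio was 0.468 among cells labelled female, 0.354 among cells labelled male and 0.359 without the 5 cells with most UMIs. The share of cells with a Col15a1 UMI was 33.2% in het and 25.8% in KO.

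The other 4 are genes of cartilage-type fibrils. Col2a1, the main fibril chain of cartilage, was at 139 CPM in het and 24.7 CPM in KO (ratio 0.178, 0.151 to 0.209). Col9a1 was at 73.0 and 16 CPM (0.219, 0.177 to 0.269), Col9a3 at 28.6 and 13.4 CPM (0.469, 0.362 to 0.606) and Col11a2 at 16.3 and 5.24 CPM (0.322, 0.216 to 0.473). These UMIs came from few cells. There were 16 of 295 het cells (5.42%, 3.13 to 8.66) and 10 of 372 KO cells (2.69%, 1.30 to 4.89) with UMIs of at least 3 of the 4 genes, and the 16 het cells held 687 of the 786 Col2a1 UMIs. Without the 5 cells with most UMIs of the gene in each library, the ratio was 0.477 for Col2a1, 0.399 for Col9a1, 0.514 for Col9a3 and 0.819 for Col11a2. Among cells labelled male the ratios were 0.989, 0.708, 0.843 and 0.843 in that order, and among cells labelled female 0.0204, 0.0460, 0.211 and 0.187. In 12544 of 12544 cells the female label goes with at least 1 UMI of Xist and the male label with 0. The split is thus by Xist detection, and whether these ratios differ by the sex of the mice was not tested. The chondrocyte markers matched in the files (5 of 7) summed to 76 CPM in het and 74.0 CPM in KO in cluster 5, with 1 of the 5, Matn1, at 0 in het. The fibroblast markers summed to 13866 and 13228 CPM there, and the arachnoid barrier markers to 9685 and 16882 CPM, with 1 of 8 measured markers at least 1.5-fold higher. The part of cell make-up in these ratios was not tested.

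In the endothelial-like cluster 8, 1 of 16 genes was higher (1.21% of all genes) and 2 were lower (1.94% of all genes). Col6a1 was at 28.2 CPM in het and 44.1 CPM in KO (1.56, 1.14 to 2.15), but its ratio was 0.792 among cells labelled male. Col8a1 was at 68.3 and 38.4 CPM (0.563, 0.428 to 0.736), and 1 het cell held 66 of its 177 UMIs; the ratio was 0.789 without the top cell of each library. Col14a1 was at 37.4 and 23.9 CPM (0.639, 0.446 to 0.906), with 43 of 97 UMIs in 1 het cell, and its ratio was 1.08 without the 6% of barcodes with the highest doublet (Scrublet) score. The pericyte or smooth muscle markers summed to 224 CPM in het and 134 CPM in KO in cluster 8 (1 of 3 measured called lower, none of 8 at 0), and the fibroblast markers to 4329.6 and 3458 CPM (1 of 4 measured called lower, 1 of 10 at 0 in each library). Their part in these ratios was not tested. The B cell-like clusters, part of the background, had Col6a1 at 38.97 CPM in het and 40.32 CPM in KO. In het that is above the Col6a1 level of cluster 8. They had Col14a1 at 21.65 CPM in het and 20.56 CPM in KO, near the KO level of cluster 8. Free RNA was not subtracted, and its part in the 3 called ratios was not tested. The genes that carry most of the cluster's collagen were within the range not called, Col4a1 at 2463 and 2489 CPM and Col4a2 at 1318 and 1426 CPM.

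In the pericyte-like cluster 20, of 61 het and 56 KO cells, 3 of 16 genes were higher (2.55% of all genes) and 0 were lower (3.11% of all genes). Col8a1 was at 259.9 CPM in het and 663 CPM in KO (2.55, 2.16 to 3.02), in 33 of 61 and 39 of 56 cells, and the ratio was 3.08 without the 5 cells with most UMIs. Col12a1 was at 72.6 and 197 CPM (2.72, 1.98 to 3.77); 1 KO cell held 53 of its 150 UMIs, and the ratio without the top cells was 2.04. Col6a3 was at 141 and 233 CPM (1.65, 1.29 to 2.12), with a ratio of 1.07 among cells labelled male. Col1a1 lay just inside the bound that is not called, at 1.49, and Col6a3 was the nearest gene past it. The pericyte or smooth muscle markers (8 of 8 measured, none at 0) summed to 25082 CPM in het and 22504 CPM in KO, with Myh11 called lower (0.636) and Rgs5 at 0.677. The fibroblast markers summed to 9686 and 9166 CPM, with none of 3 measured called, 2 of 10 at 0 in het and 1 in KO, and Dpt at 1 and 28 UMIs. The arachnoid barrier markers summed to 211 and 355 CPM, with the 1 measured, Cldn11, called higher (1.62) and 4 and 3 of 9 at 0. The part of these marker levels in the collagen ratios was not tested.

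In cluster 15, 3 of 23 genes were higher (5.0% of all genes) and 2 were lower (7.4% of all genes), a cluster where many genes of all kinds differed. Col20a1 was at 20.4 CPM in het and 62.8 CPM in KO (3.08, 2.13 to 4.54), Col14a1 at 46.9 and 88.1 CPM (1.88, 1.43 to 2.47) and Col5a3 at 46.9 and 70.3 CPM (1.5, 1.13 to 2.00). Col8a1 was at 38.4 and 15.7 CPM (0.409, 0.246 to 0.657) and Col11a2 at 40.7 and 16.4 CPM (0.402, 0.245 to 0.639). The Col8a1 level was above that of the B cell-like clusters in het (19.84 CPM) and below it in KO. The oligodendrocyte markers (7 of 7 measured) summed to 32696 CPM in het and 20516 CPM in KO, with 6 at least 1.5-fold lower. The Schwann cell markers summed to 28796 and 24252 CPM, with 4 of 7 at least 1.5-fold higher and 1 lower, and no marker of either list was at 0. Among cells labelled male the ratio was 0.780 for Col14a1, 0.631 for Col5a3 and 1.79 for Col11a2, the other side of 1 from the whole cluster. Median depth was 12280.5 UMIs in het and 8967 UMIs in KO. The part of marker levels, depth and free RNA in these ratios was not tested.

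The genes that fold, trim, link and bind collagen gave 5 calls over the 7 structural clusters, of P3h4, Pcolce2 (in 2 clusters), Loxl1 and Itga10. The shares of all genes called in each cluster are those given above. Of the 19 listed genes of folding and modification, 17 were measured in cluster 0, 17 in cluster 4, 16 in cluster 5 and 17 in cluster 7, and none was called there or in clusters 8 (14 measured) and 20 (10 measured). Serpinh1, the collagen chaperone of the endoplasmic reticulum, was at 1577 CPM in het and 1631 CPM in KO in cluster 0 and at 606 and 658 CPM in cluster 8. Ppib, a prolyl isomerase of the same step, was at 1038 and 1028 CPM in cluster 0. In cluster 15, 1 of 12 was lower (7.4% of all genes): P3h4, a partner of prolyl 3-hydroxylation, at 45.0 and 23.9 CPM (0.531, 0.350 to 0.790). Pcolce, which enhances removal of the C-terminal propeptide, was at 1007 and 999 CPM in cluster 0.

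Of the 14 listed genes of processing and cross-linking, Pcolce2, the relative of Pcolce, was called higher in clusters 7 and 4. It was 1 of 10 measured in cluster 7 (2.77% of all genes) and 1 of 10 measured in cluster 4 (0.97% of all genes). In cluster 7 it had 27 UMIs in het and 224 UMIs in KO, or 5.79 and 40.7 CPM (7.04, 4.71 to 10.9). The ratio was 12.3 among cells labelled female, 5.97 among cells labelled male and 9.70 without the 5 cells with most UMIs. In cluster 4 it was at 13.3 and 45.9 CPM (3.45, 2.65 to 4.54), but 1.10 among cells labelled male and 1.49 without the 5 top cells. Loxl1, a lysyl oxidase-like enzyme of cross-linking, was lower in cluster 8 (1 of 5 measured, 1.94% of all genes), at 30.9 and 12.7 CPM (0.410, 0.255 to 0.642). It had a ratio of 1.45 without the highest doublet scores. None of the 11 measured genes of this list was called in cluster 0, of 9 in cluster 5, of 3 in cluster 15 and of 5 in cluster 20. Of the 10 listed receptors, 1 was called: Itga10, a collagen-binding integrin of cartilage and bone, at 19.7 and 11.1 CPM in cluster 4 (0.565, 0.415 to 0.766, 1 of 7 measured). In that cluster 1.01% of all genes were lower. Itgb1, the shared integrin beta chain, was at 339 and 351 CPM in cluster 0.

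Collagen UMIs were also present in the immune clusters, where free RNA is the known background of droplet data. The median immune cell had 5 to 10.5 collagen UMIs in het and 8 to 19 in KO across the 12 immune clusters. The KO median of 19 was that of cluster 12, which was left unnamed. Its leading genes were Scgb1c1, the mast cell or basophil markers Cma1 and Mcpt4, and Mpo among others. Its median depth was 17456 UMIs in het and 9946.5 UMIs in KO. Of its 134 het Col2a1 UMIs, 106 were in 2 of 166 cells. Whether all its collagen UMIs are free RNA was not tested. The median was higher in KO in 12 of 12 clusters. It varied far less than depth: B cell-like cluster 1 had medians of 5 and 9 collagen UMIs at 3934.5 and 4178 UMIs per cell, and B cell-like cluster 6 had 6 and 11 at 19690.0 and 19368.5 UMIs per cell. A Col1a1 UMI was present in 84.5% (82.8 to 86.1) of het and 95.3% (94.4 to 96.2) of KO cells of the B cell-like clusters, and in 100% of cells of both fibroblast-like clusters in both libraries. After each cell was thinned to 1000 UMIs, the B cell-like shares were 30.7% and 44.0% and the fibroblast-like shares 99% in both libraries. For this, 2 het and 1 KO cells of the B cell-like clusters with fewer UMIs were left out.

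**Figure D4:**
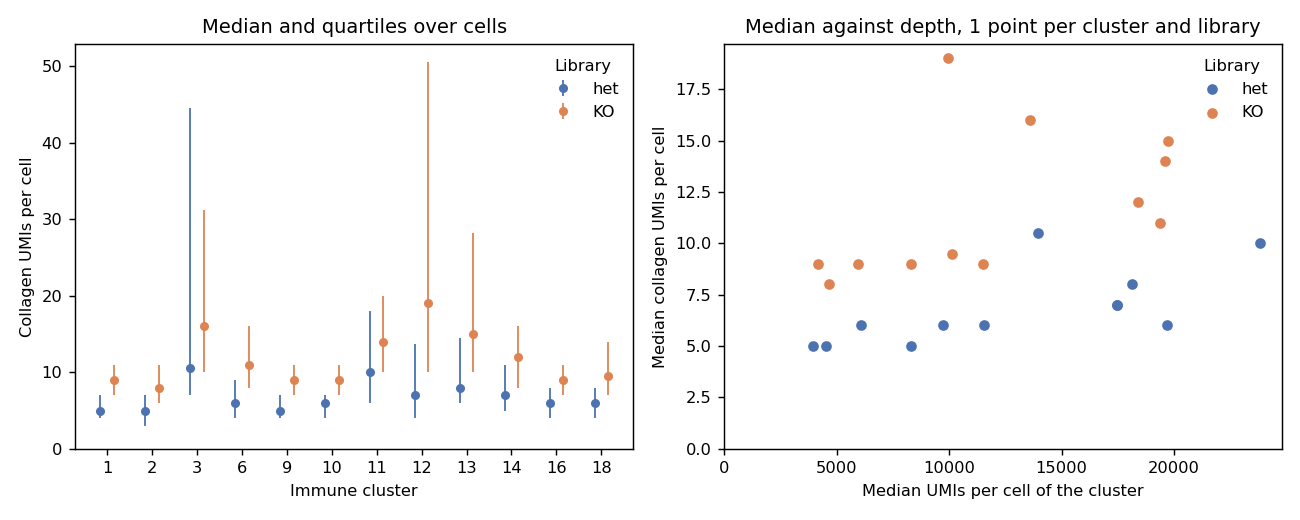
Left: collagen UMIs per cell (y axis) in the 12 immune clusters (x axis), points for the median and lines for the quartiles over cells, by library. Right: the same medians against the median UMIs per cell of the cluster (x axis). KO medians of 8 to 19 stand above the het medians of 5 to 10.5 in every cluster, at depths from 3934.5 to 23817 UMIs.

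Barcodes that the authors did not annotate were counted as well, and what they hold was not tested. Among those with 500 to under 1000 UMIs (919 het and 1009 KO barcodes) collagens were 1.00% of UMIs in het and 1.65% in KO, with a median of 5 and 10 collagen UMIs per barcode. The summed collagen share of annotated immune cells did not follow one direction. It was higher in KO in 7 of 12 clusters, with ratios from 0.357 in the monocyte-like cluster 18 to 2.90 in cluster 12. In cluster 9, 6 of 6 measured collagen genes were called higher (2.51% of all genes), in cluster 12 it was 14 of 20 (8.44% of all genes), and in the B cell-like cluster 10, 10 of 10 were called lower (4.12% of all genes). In cluster 10 the het sum rested on few cells. A collagen share over 0.5% was found in 8 of 227 het cells, which held 78.7% of the collagen UMIs. It was found in 2 of 249 KO cells, which held 26.8%. In cluster 12 it was found in 13 of 166 het cells, which held 48.0%, and in 76 of 214 KO cells, which held 80.4%. In B cell-like cluster 1 the cells above that share held 20.2% in het and 12.4% in KO. In the macrophage-like cluster 3, 94 of 446 het and 93 of 440 KO cells were above that share and held 92.3% and 89.5% of the UMIs. Of these 94 and 93 cells, 52 and 57 were among the highest doublet scores.

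The make-up of the collagen UMIs was compared between the B cell-like clusters and the other immune clusters, each pooled and relative to Col1a1. Of 18 other genes with at least 100 UMIs in the B cell-like clusters, 16 had 0.759 to 1.37 times (het) and 0.548 to 1.03 times (KO) as many UMIs per Col1a1 UMI there as in the other immune clusters, cluster 12 left out. The 2 others were Col5a3 and Col27a1, singled out after their values were seen. Col5a3 had 15.8 times as many in het and 11 times as many in KO, and Col27a1 3.44 and 2.29 times as many. Col5a1 and Col5a2, the other type V chains, were at 1.37 and 0.834 times and at 0.989 and 0.858 times.

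**Figure D5:**
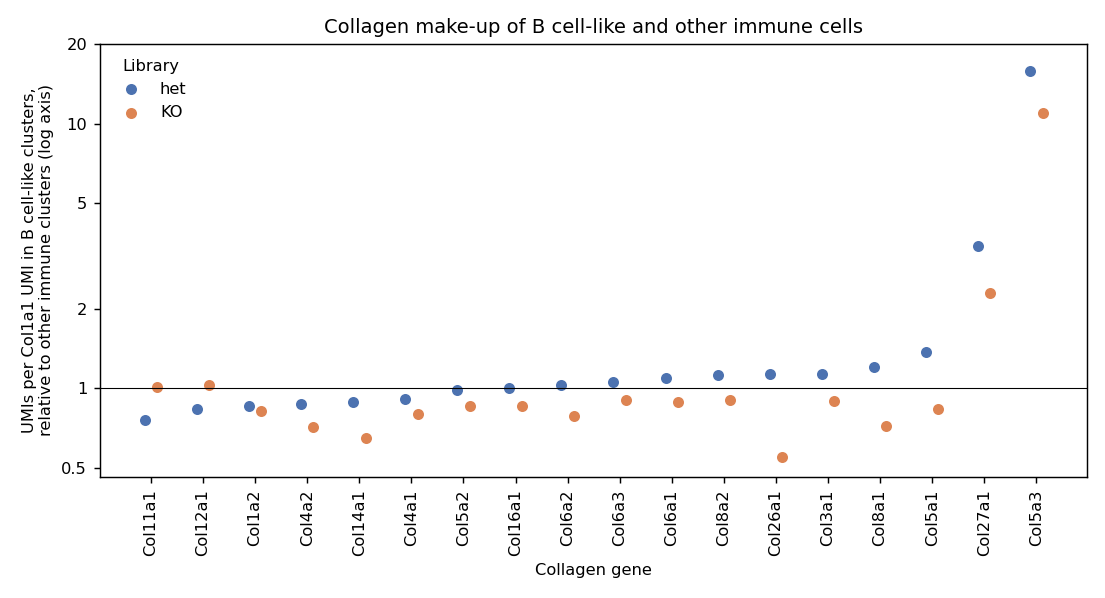
UMIs per Col1a1 UMI in the B cell-like clusters relative to the other immune clusters (y axis, log scale) for the 18 collagen genes with at least 100 UMIs in the B cell-like clusters (x axis), het and KO points. Col5a3, at 15.8 and 11, and Col27a1, at 3.44 and 2.29, stand above the other 16 genes.

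Col5a3 (chr9:20770050-20815067, minus) encodes a less widespread type V chain. In B cell-like cluster 1 it was at 154 CPM (139 to 170) in het and 125 CPM (114 to 137) in KO, against 141 and 174 CPM in fibroblast-like cluster 7. It was present in 211 of 646 het cells (32.7%) and 262 of 829 KO cells (31.6%), with at most 8 and 7 UMIs in a cell. The thinned shares were 13.3% in het and 11.7% in KO. In cluster 9, lymphoid cells of higher median depth (8294 and 8319 UMIs against 3934.5 and 4178), the share was 0.893% and 1.98% before thinning and 0.446% and 0.395% after. Per 100 UMIs of Col1a1, Col5a3 had 25.4 and 15.6 UMIs in cluster 1, 7.66 and 3.67 in cluster 16, 3.71 and 2.91 in cluster 2, 2.85 and 2.75 in cluster 10, 2.12 and 1.43 in cluster 6, and 0.45 and 0.50 in the other immune clusters. The low unannotated barcodes had 0.847 and 0.687. Cluster 1 gave 405 of the 621 het and 456 of the 653 KO UMIs of Col5a3 in the 5 B cell-like clusters. Col27a1 was highest among B cell-like clusters in cluster 16, at 59.4 and 56.4 CPM, in 33 of 126 het and 31 of 97 KO cells, against 60.0 and 62.7 CPM in fibroblast-like cluster 7. Col25a1, with 41 UMIs in the B cell-like clusters of each library, was at 9.50 and 6.85 CPM in cluster 1.

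The RefSeq promoter table held a window for 35 of the 44 genes (GRCm38.p6). The 250 bases before the start site are shown for Col5a3, the type V chain with the higher values in B cell-like cells, and for Col5a1, a type V chain without them, on the strand of each gene and in the order of transcription. Capitals mark CCAAT and GGGCGG on either strand. The window of Col5a3 is chr9:20815068-20815317 (minus) and that of Col5a1 is chr2:27886175-27886424 (plus), and neither overlaps an annotated exon.
Col5a3: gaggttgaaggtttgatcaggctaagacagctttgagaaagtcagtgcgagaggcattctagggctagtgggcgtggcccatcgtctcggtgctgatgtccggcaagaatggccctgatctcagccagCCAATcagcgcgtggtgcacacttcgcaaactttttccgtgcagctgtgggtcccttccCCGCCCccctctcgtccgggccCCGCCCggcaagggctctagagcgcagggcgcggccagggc
Col5a1: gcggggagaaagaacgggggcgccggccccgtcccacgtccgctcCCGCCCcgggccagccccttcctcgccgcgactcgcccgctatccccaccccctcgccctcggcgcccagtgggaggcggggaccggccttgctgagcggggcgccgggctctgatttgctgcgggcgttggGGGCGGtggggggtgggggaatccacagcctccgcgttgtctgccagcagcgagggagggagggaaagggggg

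The Col5a3 window held 1 CCAAT and 2 GGGCGG, and the Col5a1 window 0 and 2. TATAAA, also searched, was in neither window. Over 32851 windows of this length, 33.8% held CCAAT, 32.7% GGGCGG and 12.4% TATAAA on either strand. Among the 38 windows of the collagen genes (some have more than 1), 13, 22 and 5 held them, or 34.2%, 57.9% and 13.2%. The matches are letters in a window and were not read as binding sites.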

How the data were processed

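The deposited matrices hold UMI counts per gene and barcode. Per the submitters' processing notes the authors ran Cell Ranger 3.0.2 with mm10 (GRCm38). How cells were filtered and clustered is not given here. Clusters, sex labels and the percent of UMIs from mitochondrial genes were taken from the deposited metadata. UMI counts of annotated cells were summed per cluster and library in Python 3.11.15 (numpy 2.4.6, scipy 1.17.1) and divided by all UMIs of those cells (CPM), which has no gene length in it. Intervals are Poisson for levels, Clopper-Pearson for shares of cells and the conditional binomial for ratios. The ratio intervals were tried on simulated Poisson counts. Those counts leave out the clumping of UMIs within cells, so the trial cannot show how the intervals cover in these data. A ratio was called at 1.5-fold with at least 100 UMIs over both libraries and 50 cells per library. The share of all genes called is given by the same rule over all genes in the matrices. The genes named are all members called in a structural cluster, the other members by class, and listed pathway genes called or among the 2 highest. A cluster got a list's name where 3 or more markers exceeded the rest of the cells 2-fold (5 CPM added to both) and its leading genes did not contradict it. Doublets were scored with Scrublet (scanpy 1.11.5) and not removed, and leaving out the highest 6% of barcodes per library was an alternative. The family and all lists were chosen with earlier results of these data known. Reads of overlapping or antisense genes cannot be told apart where the counting is not stated. Promoter windows came from RefSeq.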

Additional observations from a re-analysis of the deposited data

Results flagged for a closer look

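Col8a1 and Col14a1 were called in opposite directions in different structural clusters. The KO/het ratio of Col8a1 was 2.55 in the pericyte or smooth muscle-like cluster 20, 0.563 in the blood endothelial-like cluster 8 and 0.409 in cluster 15. The ratio of Col14a1 was 1.88 in cluster 15 and 0.639 in cluster 8. The direction of Col14a1 in cluster 8 was lost without the cell with most collagen UMIs of each library (1.14), without the highest doublet scores (1.08), without the 5 cells with most Col14a1 UMIs (1.05) and with the mean of cell CPM (1.02). In male-labelled cells the ratio of Col14a1 was 1.37 in cluster 8 and 0.780 in cluster 15. Col8a1 in cluster 8 was at 0.941 without the highest doublet scores, and in cluster 15 at 0.906 without the 5 cells with most of its UMIs. Neither difference between clusters was tested, since each genotype has 1 library. Free RNA was not subtracted from these levels. In cluster 8 single het cells held 66 of 177 Col8a1 UMIs and 43 of 97 Col14a1 UMIs.

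Barcodes outside the authors' annotation carried collagen RNA. Collagens were 1.57% of UMIs in the 4986 unannotated het barcodes and 1.96% in the 5452 unannotated KO barcodes. These shares lie above the 0.101% to 0.228% of the B cell-like clusters and below the 4.40% to 4.88% of clusters 0, 4 and 7. What these barcodes hold was not tested.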

How the results depend on the processing

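The 1 library per genotype sets the limit on all ratios: no paired analysis was possible because each genotype has 1 library, so the groups share only 1 replicate number. Of the 38 genes, 36 or 37 were highest in a structural cluster under each of the 5 alternatives tried. The 8 pairs called higher in KO became 14 without the highest doublet scores, 25 among cells labelled female, 18 with the mean of each cell's CPM, 19 with at least 20 UMIs, 29 with at least 1 UMI in each library, 4 at 2-fold and 22 without the 5 cells with most UMIs of the gene. The 10 called lower became 16 among cells labelled female, 27 among cells labelled male, 20 with at least 20 UMIs and 34 with at least 1 UMI in each library, and 7 at 2-fold, 8 without the highest doublet scores, 8 without the 5 cells and 9 with the mean of cell CPM. The pairs tested and the share of all genes called are not given for these alternatives. The counts therefore cannot be set against all genes. The 23 named ratios had 231 values under alternatives: 162 stayed within the counting interval, 58 left it in the same direction and 11 turned. Those were Col14a1 in cluster 8 (1.08 without the highest doublet scores, 1.14 without the cell with most collagen UMIs, 1.37 in male-labelled cells, 1.02 with the mean of cell CPM, 1.05 without 5 cells), Loxl1 in cluster 8 (1.45 without the highest doublet scores, 1.04 without 5 cells), and in male-labelled cells Col6a1 in cluster 8 (0.792) and Col5a3 (0.631), Col11a2 (1.79) and Col14a1 (0.780) in cluster 15. The cause was not tested. The 7 immune clusters with a higher summed collagen share in KO became 12 by the median per cell. The KO/het ratio of that share was 1.14 over the B cell-like clusters, 1.61 without the highest doublet scores, 1.80 by the median per cell and 1.64 in unannotated barcodes under 1000 UMIs; the last 2 and the settings that leave out cells by their UMIs of a gene were chosen after seeing the data. By cluster it was 1.34 in 1, 1.60 in 2, 0.921 in 3, 1.17 in 6, 2.41 in 9, 0.488 in 10, 0.590 in 11, 2.90 in 12, 1.33 in 13, 0.720 in 14, 1.54 in 16 and 0.357 in 18. The KO minus het difference in B cell-like cells with a Col1a1 UMI was 10.8 percentage points and 13.3 after thinning.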

Other observations

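Col6a6 and Pcolce2, the collagen and the pathway gene called higher in KO in the fibroblast-like cluster 7, were found together in a minority of the cells that held either. Of the 71 KO cells of cluster 7 with a Col6a6 UMI, 27 had a Pcolce2 UMI (38.0%), against 7.35% of the cells without Col6a6. Of the 45 KO cells with Pcolce2, 27 had both. In het it was 5 of 21 cells (23.8%) against 4.53%. Median depth of cells with and without Col6a6 was 18283 and 16447 UMIs in KO and 18332 and 17150.0 UMIs in het. In fibroblast-like cluster 0 a Col6a6 UMI was found in 47 of 984 het and 46 of 1155 KO cells, of which 4 and 3 had a Pcolce2 UMI. These counts were made after both ratios had been seen, and no test was made.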
